A study of Homo sapiens with 6 samples.

Results

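RD18 is a human embryonal rhabdomyosarcoma line, a tumour line with features of immature skeletal muscle. Gene expression was compared between 2 derivatives of RD18 in the absence of doxycycline, NpBI-206AS and NpBI-22. The comparison set the NpBI-206AS_NotInduced array (1 culture) against the pair of NpBI-22_NotInduced arrays (2 biological replicates), 3 of the 6 arrays of the series. A gene was read as apart where the NpBI-206AS array lay outside both NpBI-22 arrays, and as 2-fold apart where it was in addition at least 1 from their mean on the log2 scale. Of 18417 genes with a row of a single symbol, 74 were 2-fold apart, 40 higher and 34 lower in NpBI-206AS. All groups shared the RD18 background and medium. The induced arrays of the series, 2 of NpBI-22 and 1 of NpBI-206AS, came from cells given doxycycline at 1 µg/ml for 6 days. NpBI-22 cells are the line in which doxycycline switches on miR-22. The labels do not name the product of the NpBI-206AS construct, nor whether either derivative is a clone or a pool.

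Skeletal muscle forms when myoblasts leave the cell cycle under the myogenic transcription factors. MYOD1 commits cells to the lineage, and MYOG together with MEF2 factors then switches on the genes of the sarcomere, the contractile unit built of myosin thick filaments, actin thin filaments and titin. Myogenic factors bind short DNA motifs called E-boxes. Rhabdomyosarcoma cells express MYOD1 yet complete this programme only in part, so the level of sarcomere genes is a common measure of how far such cells have differentiated.

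The promoters of 3 muscle genes are shown because their genes were among those below both NpBI-22 arrays: MYL1, the light chain gene furthest below, MYBPH, a myosin-binding protein gene, and MYOG, the regulator. Each window holds 250 bases before and 50 after the RefSeq start, and capitals mark E-boxes (CANNTG, which reads the same on both strands). The MYL1 window is chr2:210315125-210315424, the MYBPH window chr1:203175777-203176076 and the MYOG window chr1:203085963-203086262, all on the minus strand of GRCh38.p14 and printed 5′ to 3′ in the gene's direction.
MYL1: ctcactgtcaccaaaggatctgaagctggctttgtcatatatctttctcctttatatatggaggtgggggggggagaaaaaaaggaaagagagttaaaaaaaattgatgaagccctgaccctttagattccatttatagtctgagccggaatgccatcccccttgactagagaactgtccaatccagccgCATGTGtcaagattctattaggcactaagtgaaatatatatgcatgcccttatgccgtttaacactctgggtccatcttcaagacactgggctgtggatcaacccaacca
MYBPH: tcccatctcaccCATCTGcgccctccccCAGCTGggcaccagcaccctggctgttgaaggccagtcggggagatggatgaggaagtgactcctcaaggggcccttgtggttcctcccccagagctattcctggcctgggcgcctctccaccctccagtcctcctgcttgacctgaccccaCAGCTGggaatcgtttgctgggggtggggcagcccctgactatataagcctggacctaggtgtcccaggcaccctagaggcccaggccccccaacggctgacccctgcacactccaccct
MYOG: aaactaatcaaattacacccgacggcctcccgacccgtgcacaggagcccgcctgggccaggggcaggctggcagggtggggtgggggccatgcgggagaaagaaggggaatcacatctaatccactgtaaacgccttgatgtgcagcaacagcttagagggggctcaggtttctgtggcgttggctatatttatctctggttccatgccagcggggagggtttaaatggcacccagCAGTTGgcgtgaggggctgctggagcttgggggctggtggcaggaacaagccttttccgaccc

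The MYL1 and MYOG windows hold 1 E-box each and the MYBPH window holds 3, of which 2 have the core CAGCTG. Of the 34 lower genes, 25 had a RefSeq promoter window. An E-box was found in 20 of these (80%) and CAGCTG, which is one form of E-box, in 8 (32%). Of the 40 higher genes, 28 had a window, with an E-box in 16 (57.1%) and CAGCTG in 6 (21.4%). Among the 14239 measured genes with a window, 64.1% held an E-box and 17.7% CAGCTG. Over all 27305 windows of the same length the shares were 68.9% and 17.7%. The pattern CTANNNNTAG, used here for MEF2 sites, was found in 1 lower gene, TTN (4%), and in 2 higher genes, CCL20 and MYH15 (7.14%). It was found in 2.29% of measured genes and in 2.83% of all windows. It is a single fixed pattern, so a window without it may still hold a MEF2 site of other letters. Its middle letters are free, so a window with it need not hold a MEF2 site. These letters are a description of the windows and do not show that a factor binds there.

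The medians of the 3 untreated arrays were 5.71 to 5.75 (log2), and the number of arrays limits the precision of every value. An array code in the labels began with R509 for NpBI-22 replicate 1 and with R587 for NpBI-22 replicate 2 and both NpBI-206AS arrays, and no label explains it. NpBI-206AS was 2-fold above replicate 1 in 241 genes and below it in 86. Relative to replicate 2, which has its code prefix, the counts were 19 and 37. NpBI-22 replicate 1 was itself 2-fold above replicate 2 in 20 genes and below it in 91. Values of NpBI-206AS minus each replicate are therefore given beside the main results. Whether the prefix contributed to them was not tested.

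Over all genes, NpBI-206AS lay above both NpBI-22 arrays in 5626 (30.5%) and below both in 6606 (35.9%). The 40 genes at least 2-fold higher made up 0.217% of genes and the 34 at least 2-fold lower 0.185%. At least 2-fold beyond the nearer NpBI-22 array were 15 genes on the higher side (0.0814%) and 22 on the lower side (0.119%). No gene was 2-fold from the mean while lying between the replicates. That would need replicates more than 2-fold from each other, so this was largely set by the definition. In a limma model over all 6 arrays, 0 of 33297 rows (0.0%) passed at an adjusted p under 0.05, and 1145 rows (3.44%) had an unadjusted p under 0.05. The lowest limma adjusted p was 0.933, and each of the 74 genes had that value. Of the 34 lower genes, 31 had an unadjusted limma p under 0.05, as did 36 of the 40 higher ones, but these genes were chosen for the size of the same difference. The model takes the spread of NpBI-206AS from the NpBI-22 pairs, since its own was not measured. At the threshold, UNC45B (-1.0018) and NPAS2 (1.0044) lay just inside, and ANKRD7 (0.9993) and C3AR1 (0.9957) just outside.

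**Figure D1:**
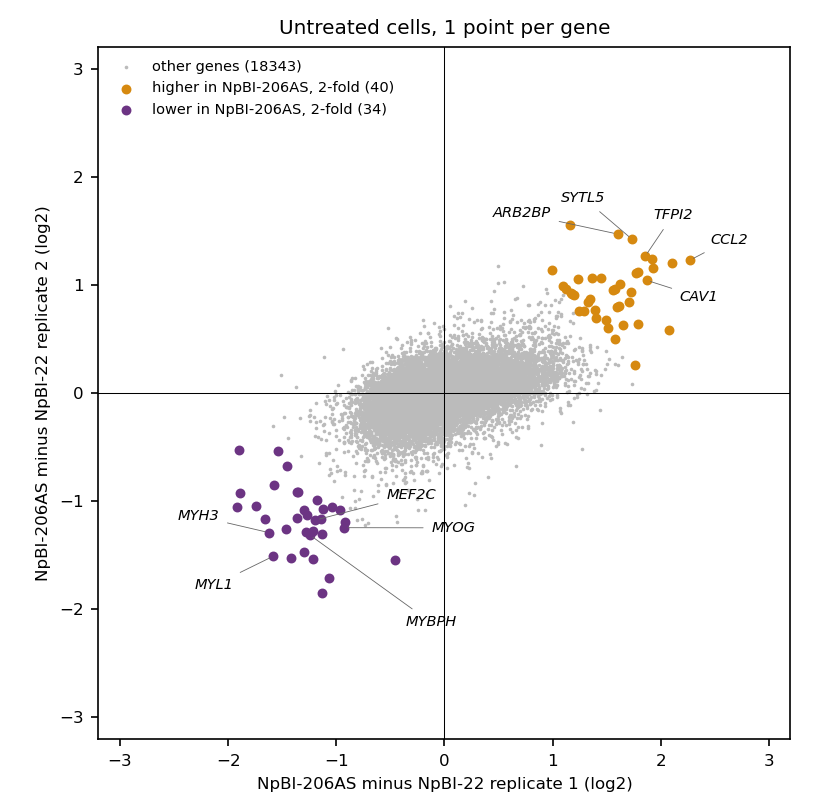
Each point is a gene, placed by its log2 difference in untreated cells between NpBI-206AS and NpBI-22 replicate 1 (horizontal axis) and replicate 2 (vertical axis). The 34 lower genes (purple) lie at like distances from both replicates, with medians of -1.29 and -1.17, while the 40 higher genes (orange) lie farther from replicate 1 (median 1.57) than from replicate 2 (median 0.94).

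The muscle markers MYH3, MYH8 and MYBPH were all lower in NpBI-206AS. MYH3, the embryonic myosin heavy chain (row 8012787), read 6.40 in NpBI-206AS against 8.02 and 7.69 in NpBI-22 replicates 1 and 2. MYH8, the perinatal heavy chain, read 4.52 against 5.88 and 5.44. MYBPH, which binds the myosin filament, read 6.71 against 7.96 and 8.02. The NpBI-206AS array was below both replicates for each of these, by 1.29, 0.92 and 1.25 from the nearer array. The differences from the NpBI-22 mean were -1.46 for MYH3 (limma SE 0.259), -1.14 for MYH8 (SE 0.239) and -1.28 for MYBPH (SE 0.178), corresponding to 2.74-fold, 2.20-fold and 2.43-fold lower expression.

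The light chains of fast muscle myosin were lower still. MYL1, an essential light chain (row 8058604), read 8.51 in NpBI-206AS against 10.09 and 10.02, a difference of -1.54 (limma SE 0.19, unadjusted p = 0.00026, adjusted p = 0.933), or 2.92-fold lower. Of the 34 lower genes it lay farthest below the nearer NpBI-22 array. MYL11, the regulatory light chain long known as MYLPF, read 7.86 against 9.28 and 9.39. Among the 16 sarcomeric myosin and myosin-binding genes, NpBI-206AS was below both arrays in 13 (81.25%, against 35.9% of all genes). It was above both in 1, MYH6, at 4.93 against 4.91 and 4.83. The list's median difference was -0.59, with -0.41 from replicate 1 and -0.48 from replicate 2. The 5 that were 2-fold lower were MYH3, MYH8, MYBPH, MYL1 and MYL11. MYH2, a heavy chain of adult fast fibres, read 4.31 against 5.13 and 4.96, a difference of -0.73. MYH7 read 5.95 between 5.73 and 6.25, and MYH1, MYH4 and MYL2 lay under the lower quartile of all 3 arrays (3.95 to 4.01), where no level above background is shown.

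Thin filament genes were lower to a smaller extent. Of 15 measured, 10 lay below both arrays (66.7%, against 35.9% of all genes) and 1 above, with a median of -0.26. TNNI1, the inhibitory troponin of slow muscle, was the only member 2-fold apart, at 7.01 against 8.22 and 8.54. The calcium-binding troponins followed just under that threshold, with TNNC2 at 6.05 against 6.82 and 7.21 and TNNC1 at 5.54 against 6.28 and 6.76. ACTC1, a sarcomeric actin abundant in developing muscle, read 11.30 against 12.13 and 12.20, a difference of -0.86. Other members sat close to NpBI-22: the fast troponin gene TNNT3 read 6.42 between 6.38 and 6.48, and TPM1, a tropomyosin, was the member above both arrays at 7.83 against 7.57 and 7.75.

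Genes of the Z-disc, the M-band and sarcomere assembly had the largest share below both arrays among these lists, 20 of 24 (83.3%). The share over all genes was 35.9%. In this list 2 genes lay above both arrays, and the median was -0.47. TTN, the gene of the giant spring protein titin, read 6.43 in NpBI-206AS against 7.56 and 8.28. SMYD1, a muscle methyltransferase needed for myofibril assembly, read 6.35 against 7.65 and 7.82, and UNC45B, a chaperone of myosin, 5.44 against 5.90 and 6.99. Among the 34 lower genes, UNC45B rested most on replicate 2, since it lay only 0.46 below replicate 1. MYOM2, an M-band protein gene, read 4.60 against 5.52 and 5.80. ACTN2, the alpha-actinin of the Z-disc, differed by -0.91, and the muscle intermediate filament gene DES by -0.46, at 8.81 against 9.24 and 9.30.

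Genes that couple excitation to contraction were less uniform. Of 22 measured, 14 lay below both arrays (63.6%, against 35.9% of all genes) and 4 above, with a median of -0.29. CASQ2, which stores calcium in the sarcoplasmic reticulum, read 4.62 against 6.36 and 5.67, and HRC, another calcium-binding protein of that store and outside the list, 4.84 against 6.11 and 5.97. RYR1, the calcium release channel, differed by -0.82, at 7.17 against 8.20 and 7.79. The acetylcholine receptor subunit CHRNA1 read 11.48 against 11.52 and 11.73. The members above both arrays were JPH1, JPH2, JSRP1 and TRDN, named after their values were seen, and TRDN was under the lower quartile on all 3 arrays.

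Taking the 4 lists of contraction genes as a whole, 77 of 81 listed genes were measured. NpBI-206AS was below both NpBI-22 arrays in 57 of them (74.0%, against 35.9% of all genes), above both in 8 and between them in 12. The median difference was -0.36, against -0.021 over all genes, with -0.35 from replicate 1 and -0.44 from replicate 2. Of the 77, 11 were 2-fold lower and 0 were 2-fold higher, and 21 had an unadjusted limma p under 0.05, with 0 passing after adjustment over all rows. Fewer cells expressing these genes and less RNA of them per cell cannot be told apart in bulk RNA.

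**Figure D2:**
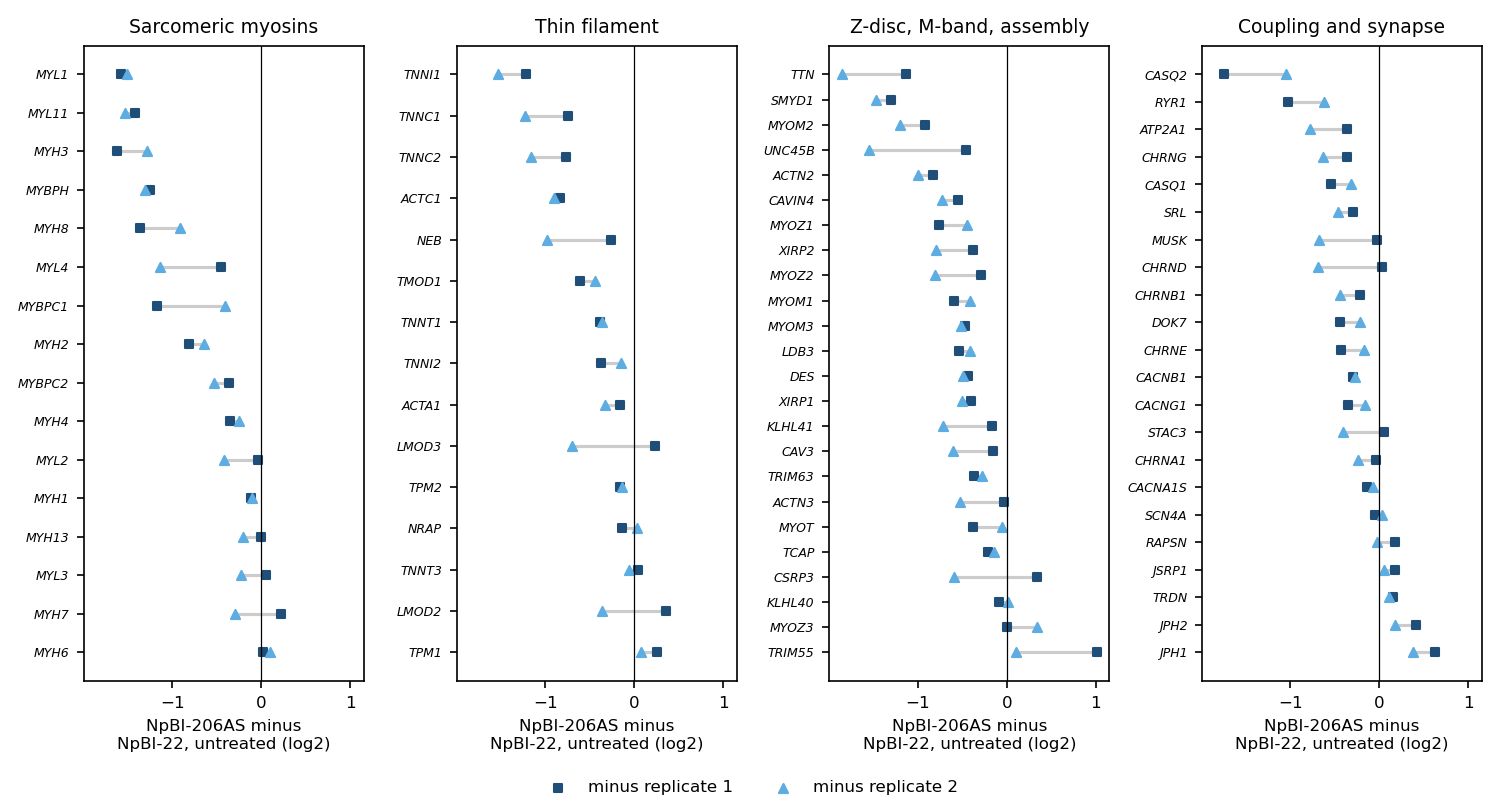
Log2 difference in untreated cells between NpBI-206AS and each NpBI-22 replicate for the 77 measured contraction genes in 4 lists; squares are differences from replicate 1, triangles from replicate 2, and a grey bar joins them. In 57 genes both marks lie left of 0, in 8 both lie right of it, and TRIM55, a muscle ubiquitin ligase at 8.88 against 7.87 and 8.78, shows the widest distance on the right from replicate 1.

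The regulators of the muscle programme divided. MYOG, which drives terminal differentiation (row 7923528), read 8.86 in NpBI-206AS against 9.79 and 10.11, a difference of -1.09 (limma SE 0.277, unadjusted p = 0.0089, adjusted p = 0.933). MEF2C, its partner at sarcomere genes, read 7.29 against 8.48 and 8.47, a difference of -1.18 (SE 0.216), and the replicates lay much closer to each other than to NpBI-206AS. MYOD1, by contrast, read 9.37, between 9.22 and 9.74. Its relatives MYF6 and MYF5 differed by -0.15 and -0.02, MYF5 being under the lower quartile on all 3 arrays.

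Of 20 measured regulators, 12 lay below both NpBI-22 arrays (60%, against 35.9% of all genes) and 5 above, with a median of -0.12. Those 5, named after their values were seen, were EYA1, a transcriptional cofactor, and ID1, ID2, ID3 and ID4, which bind the partners of myogenic factors and keep them from DNA. ID1 read 8.57 against 7.51 and 8.08, ID2 6.28 against 5.94 and 5.87, ID3 9.46 against 9.24 and 8.93, and ID4 6.76 against 6.63 and 6.02. None of the 4 ID genes was 2-fold apart, and their differences of 0.37 to 0.78 had unadjusted limma p of 0.058 to 0.26. Induced NpBI-206AS read 7.76 for ID1, 5.46 for ID2, 8.75 for ID3 and 6.67 for ID4. Of these, only ID4 was above both untreated NpBI-22 arrays, while ID2 and ID3 were below both.

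Genes of muscle fusion and energy supply differed little as a list (7 of 15 below both arrays, 2 above, median -0.15). CKM, the muscle creatine kinase, was the exception at 5.90 against 7.03 and 7.20. MYMK, required for myoblast fusion, read 6.88 against 7.32 and 8.07. Of 17 genes of muscle progenitors, 13 lay below both arrays and 2 above, with a median of -0.26, but only -0.11 from replicate 2, and 0 were 2-fold apart. The progenitor factors PAX3 and PAX7 differed by -0.13 and -0.16. The members with the largest distance were CD34, a surface glycoprotein, higher at 5.84 against 4.79 and 5.29, and PITX3, a homeobox factor, lower at 6.61 against 7.16 and 7.07. For 19 Notch pathway genes, 11 lay below both arrays and 1 above. Their median was -0.16, with -0.41 from replicate 1 and -0.09 from replicate 2. Below both arrays lay 46.7% of the fusion and energy genes, 76.5% of the progenitor genes and 57.9% of the Notch genes. The share was 35.9% over all genes and 74.0% over the contraction genes, so progenitor genes lay below as often as contraction genes.

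**Figure D3:**
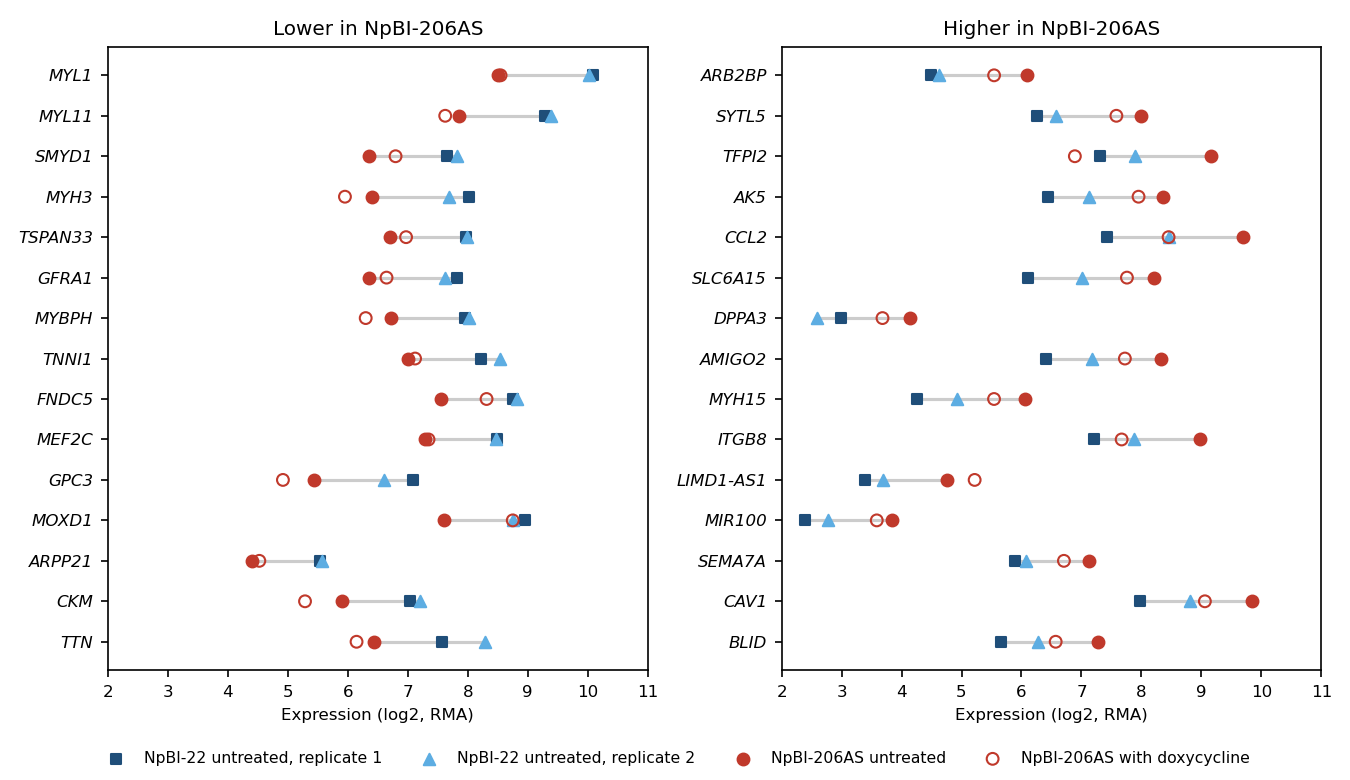
Log2 expression of the 15 genes lowest (left) and the 15 highest (right) in untreated NpBI-206AS by distance to the nearer untreated NpBI-22 array; filled circles are untreated NpBI-206AS, squares and triangles NpBI-22 replicates 1 and 2, and open circles NpBI-206AS with doxycycline. On the left the replicates mostly lie together above NpBI-206AS; on the right replicate 1 is the lowest untreated array in all but DPPA3.

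The other lower genes had no single role. The surface and signalling genes included GFRA1, a receptor for the GDNF family (6.36 in NpBI-206AS against 7.83 and 7.61), the tetraspanin TSPAN33 (6.70 against 7.98 and 7.98) and GPC3, a glypican (5.44 against 7.09 and 6.60). FNDC5, the gene of the irisin precursor, read 7.55 against 8.76 and 8.82, and ANKRD1, an ankyrin-repeat protein of striated muscle, 8.50 against 9.80 and 9.58. In each of these 5 genes NpBI-206AS lay at least 1.08 below the nearer NpBI-22 array.

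Matrix genes on the lower side were the laminin chain LAMA4 (7.59 against 8.95 and 8.51), the protease ADAMTS5 (6.97 against 8.10 and 8.04), the protease inhibitor A2M (5.31 against 7.23 and 6.37) and the proteoglycan DCN (3.83 against 4.79 and 4.91). The DCN level in NpBI-206AS was under the lower quartile of that array. Among the transcription factors, SOX6 read 5.05 against 6.23 and 6.04, and ISL1 5.45 against 6.99 and 5.99. ISL1 and the guidance ligand SLIT2 lay only 0.54 and 0.52 below replicate 2 but further below replicate 1. The remaining lower genes were MOXD1, ARPP21, B3GALT2, DCLK1, CYSLTR1, CLMP and MAGEL2, with differences from -1.04 to -1.40.

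On the higher side, the difference was largest for a chemokine gene. CCL2, which attracts monocytes (row 8006433), read 9.69 in NpBI-206AS against 7.42 and 8.47, a difference of 1.75 (limma SE 0.446, unadjusted p = 0.0088, adjusted p = 0.933), or 3.36-fold. CCL20, another chemokine gene and further down the 40, read 6.51 against 4.80 and 5.67. The replicates themselves differed by about as much as NpBI-206AS differed from the nearer of them. Of 22 chemokine and NF-kB genes, 10 lay above both arrays (45.5%, against 30.5% of all genes) and 3 below. Their median was 0.10, and 2 members, CCL2 and CCL20, were 2-fold apart. Induced NpBI-206AS cells read 8.45 for CCL2 and 5.01 for CCL20, within the range of the untreated NpBI-22 arrays.

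Several higher genes, picked after their values were seen, act in adhesion, the cell membrane or the matrix. ITGB8, an integrin chain that takes part in activating TGF-beta, read 8.98 against 7.21 and 7.87. AMIGO2, a cell adhesion protein, read 8.33 against 6.40 and 7.18, and CAV1, the coat protein of caveolae, 9.85 against 7.98 and 8.80. For these NpBI-206AS was the highest array and replicate 1 the lowest. SEMA7A, a membrane-anchored semaphorin, read 7.13 against 5.89 and 6.07, LOX, which cross-links collagen, 9.57 against 8.44 and 8.60, and SPP1, the matrix protein osteopontin, 6.54 against 5.14 and 5.77. For SEMA7A and LOX the replicates lay within 0.2 of each other. TFPI2, an inhibitor of matrix-degrading proteases, read 9.16 against 7.30 and 7.90, yet 6.89 in induced NpBI-206AS, below both NpBI-22 arrays. Collagen and matrix genes as a list did not share this direction, with 9 of 33 above both arrays (27.3%) and 15 below (45.5%, median -0.14). Of 19 integrins and laminins, 8 lay above (42.1%) and 7 below (36.8%), with a median of 0.02. The shares over all genes were 30.5% above and 35.9% below.

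Transport and metabolic genes among the highest were SLC6A15, a carrier of neutral amino acids (8.21 against 6.10 and 7.01, 3.15-fold), the adenylate kinase AK5 (8.37 against 6.44 and 7.13) and SYTL5, a synaptotagmin-like protein of vesicle traffic (8.0 against 6.26 and 6.57). The pseudogene ARB2BP had the largest distance on the higher side, at 6.09 against 4.49 and 4.62. MYH15, a myosin heavy chain gene outside the list of sarcomeric myosins used here, was higher at 6.05 against 4.26 and 4.93, opposite to MYH3 and MYH8. DPPA3, a factor of germ cells and the early embryo, read 4.14 against 2.98 and 2.59, and both NpBI-22 values were under the lower quartile. The rows of ASB9, LIMD1-AS1, SORCS1, THEMIS, ZNF665 and MIR100 were also under it on at least 1 array, so 7 of the 40 differences rest in part on levels not shown to be above background.

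The 40 higher genes shared a feature that the 34 lower ones did not show. Replicate 1 was farther from NpBI-206AS than replicate 2 in 38 of the 40, against 19 of the 34 lower genes. The median of replicate 1 minus replicate 2 was -0.62 in the higher genes and 0.07 in the lower genes, against 0.015 over all genes. The 40 were chosen by the mean of both replicates, which a low replicate 1 brings down. Over all genes, 241 were 2-fold above replicate 1 and 19 above replicate 2, so this feature is not particular to the 40. With replicate 1 left out, 16 of the 40 remained at least 2-fold above NpBI-22, and 26 of the 34 remained at least 2-fold below. With replicate 2 left out, 39 and 30 remained. Counted afresh against replicate 2 alone, 19 genes were 2-fold higher and 37 lower, so the count of higher genes depends on replicate 1.

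The 40 higher genes included 3 neighbours on chromosome 11 with no other measured gene between them, BLID, MIRLET7A2 and MIR100. BLID, a gene reported to promote cell death, read 7.28 in NpBI-206AS against 5.66 and 6.27. The row of MIRLET7A2 read 5.59 against 4.10 and 4.92, and that of MIR100 3.84 against 2.39 and 2.77, with all 3 MIR100 values under the lower quartile of their arrays. The row of MIR125B1, from the same stretch of the chromosome, read 5.63 against 5.56 and 5.56, so that row lay near NpBI-22. These rows read transcripts of the microRNA genes and not the mature microRNAs, whose main products from RefSeq (GRCh38.p14, minus strand) are shown to identify them, with the seed, bases 2 to 8, in capitals. The let-7a window is chr11:122146568-122146589 and the miR-100 window chr11:122152275-122152296.
hsa-let-7a-5p: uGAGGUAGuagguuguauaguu
hsa-miR-100-5p: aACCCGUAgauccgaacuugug

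The seeds differ, GAGGUAG for let-7a and ACCCGUA for miR-100. Over 189 rows of microRNA genes, NpBI-206AS lay above both arrays in 29 and below both in 97 (51.3%, against 35.9% of all genes). Their median was -0.10, and 85 of the rows were under the lower quartile on all 3 arrays. MIRLET7A2 and MIR100 were the 2 members at least 2-fold apart. Elsewhere, MYOG and MYBPH lay with 1 measured gene between them on chromosome 1, and MYH8 and MYH3 with 3 between them on chromosome 17. No wider block stood out. Chromosome medians lay between -0.09 and 0.03, and running medians over 25 neighbouring genes between -0.29 and 0.33, against -0.57 to 0.39 for replicate 1 minus replicate 2.

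Of 5 genes tied to the microRNAs of the study, ERBB3 lay furthest from NpBI-22. MIR22HG, the host gene of miR-22, read 6.41 in NpBI-206AS, between 6.27 and 6.72. MIR206, the row of a muscle microRNA gene, read 6.29 against 6.39 and 6.79, a difference of -0.30 (limma SE 0.236). TACC1, a protein of the centrosome, lay between the replicates, and RAB5B, a GTPase of early endosomes, was 0.14 above their mean. ERBB3, a receptor of the EGF receptor family, read 6.47 against 7.10 and 7.10, a difference of -0.63 (SE 0.177, unadjusted p = 0.013, adjusted p = 0.933). Literature targets of miR-206 (20 measured) had a median of 0.10, with 10 above both arrays (50%) and 7 below (35%). Those of miR-22 (22 measured) had a median of 0.03, with 7 above (31.8%) and 5 below (22.7%). Over all genes the shares were 30.5% above and 35.9% below. None of these targets was 2-fold apart.

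**Figure D4:**
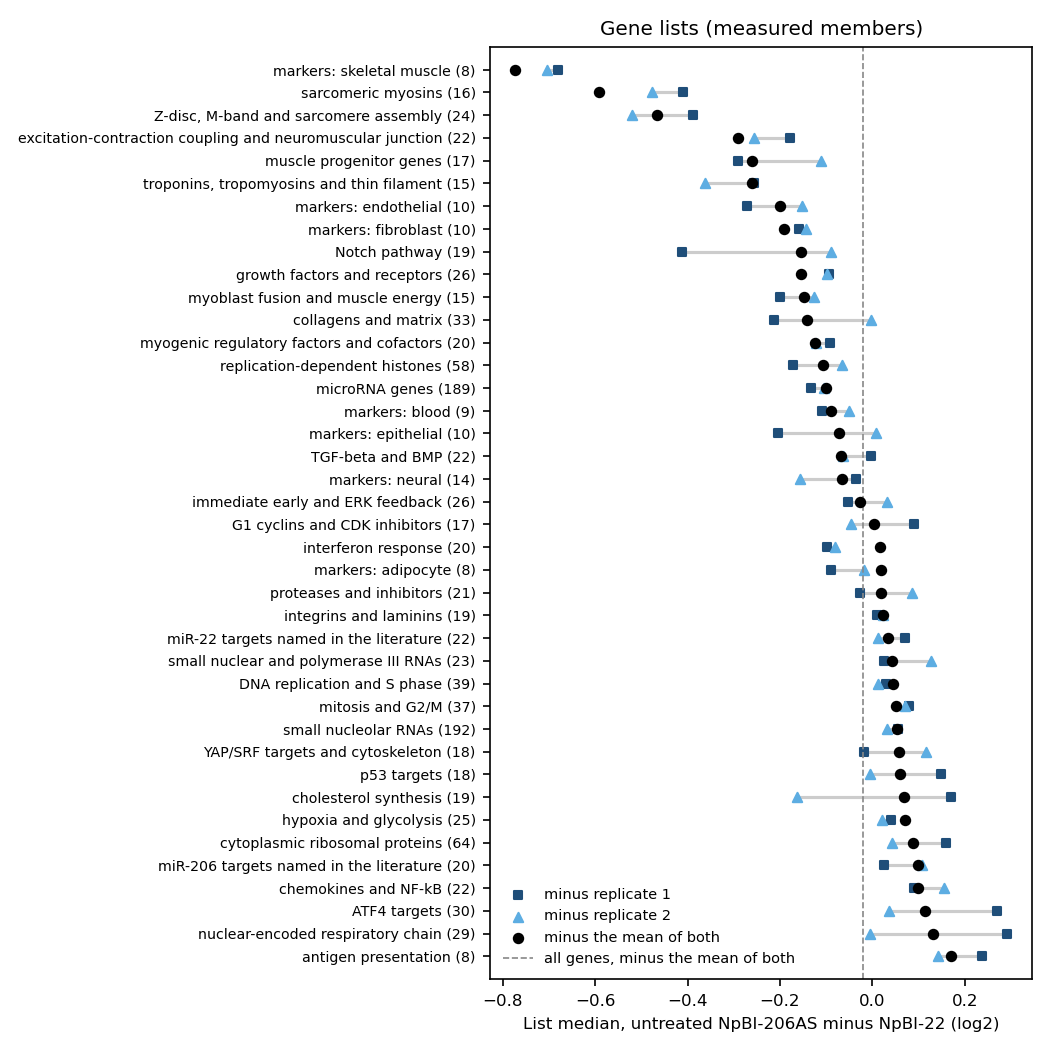
Median log2 difference in untreated cells between NpBI-206AS and NpBI-22 for each gene list, with its number of measured genes; squares are differences from replicate 1, triangles from replicate 2 and black dots from their mean, and the dashed line is the median of all genes (-0.021). A dot can lie outside its other marks because the 3 medians are taken separately. The skeletal muscle markers (-0.77), sarcomeric myosins (-0.59) and Z-disc genes (-0.47) lie furthest left. MYH3, MYH8 and MYBPH, known beforehand as markers of this comparison, belong to both the marker list and the myosin list. The places of these lists are therefore neither independent of each other nor separate support.

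Proliferation genes were near NpBI-22 by their medians. Of 37 genes of mitosis, 18 lay above both arrays and 6 below, with a median of 0.05, and of 39 genes of DNA replication 14 above and 5 below, with a median of 0.04. Cytoplasmic ribosomal protein genes had 30 of 64 above and 10 below (median 0.09), and replication-dependent histone genes 10 of 58 above and 30 below (median -0.11). Of all genes, 30.5% lay above both arrays and 35.9% below. The shares above and below were 48.6% and 16.2% for mitosis and 35.9% and 12.8% for DNA replication. They were 46.9% and 15.6% for ribosomal proteins and 17.2% and 51.7% for histones. Without the dimmest 50 percent of rows, 25.8% of genes lay below. No gene of these 4 lists was 2-fold apart. Outside the lists, CENPH, a gene of the kinetochore, was 2-fold higher at 6.95 against 5.16 and 6.32. So were ANAPC10, of the anaphase-promoting complex, at 7.64 against 6.07 and 7.14, and the histone gene H3-5 at 9.84 against 8.33 and 9.24. These genes were picked after their values were seen.

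As a check of the labelled cell type, 8 skeletal muscle markers were read. They include MYH3, MYH8 and MYBPH, already described as lower, so their direction adds no separate support. All lay above the lower quartile on each array, and 7 of 8 were below both NpBI-22 arrays in NpBI-206AS (median -0.77), MYOD1 being between them. Their mean level was 8.0 in NpBI-206AS against 8.73 and 8.78. Markers of other cell types had lower list means, and these means were close between the lines. Mean levels in NpBI-206AS, replicate 1 and replicate 2 were 5.62, 5.66 and 5.54 for 10 epithelial markers, 4.75, 4.96 and 4.87 for 10 endothelial markers, and 4.40, 4.43 and 4.40 for 9 blood markers. For 14 neural markers they were 5.11, 5.19 and 5.21, for 10 fibroblast markers 6.30, 6.58 and 6.50, and for 8 adipocyte markers 4.46, 4.55 and 4.48. Among these markers of other cell types DCN alone was 2-fold apart, and it was lower. The neural marker NEFL read 7.38 against 8.82 and 7.80, a difference of -0.93 that the list mean does not show. Counts below both arrays were 4 of 10, 7 of 10, 5 of 9, 4 of 14, 5 of 10 and 2 of 8, in that order. These are 40%, 70%, 55.6%, 28.6%, 50% and 25%, against 35.9% of all genes.

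The induced NpBI-206AS array was read against the same untreated NpBI-22 arrays, so its values share those controls and are given side by side only. MYL1 read 8.51 untreated and 8.55 induced, MYH3 6.40 and 5.95, MYBPH 6.71 and 6.30, TTN 6.43 and 6.15, MEF2C 7.29 and 7.35, and MYOG 8.86 and 8.57. These muscle genes were thus low on both NpBI-206AS arrays. Of the lower genes, MOXD1 read 7.60 untreated and 8.75 induced, and FNDC5 7.55 and 8.31. The 34 lower genes had a median difference from untreated NpBI-22 of -1.22 untreated and -1.19 induced, and the 40 higher genes 1.21 untreated and 0.67 induced. Both sets were chosen for the size of the untreated difference, which enlarges the untreated medians. Whether doxycycline changed these genes was not tested.

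In NpBI-22 itself, cells induced to express miR-22 read 5.26 and 4.86 for MYH3, 5.87 and 5.87 for MYBPH, and 3.58 and 3.57 for MYH8. For these 3 markers untreated NpBI-206AS (6.40, 6.71 and 4.52) lay between untreated and induced NpBI-22. MYL1 read 8.93 and 8.76 and TNNI1 7.40 and 6.93 in induced NpBI-22, against 8.51 and 7.01 in untreated NpBI-206AS. MEF2C and SMYD1 stood apart from these: they read 8.56 and 8.90, and 8.45 and 8.55, in induced NpBI-22, at or above its untreated level, while untreated NpBI-206AS read 7.29 and 6.35. The induced NpBI-22 arrays carry a code prefix of their own, R715, so prefix and induction cannot be told apart in them.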

How the data were processed

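Total RNA of cultured RD18 cells was read on Affymetrix Human Gene ST arrays. The deposited table holds log2 expression. Per the submitters' processing notes the authors used Partek and RMA, with no version or parameter listed; the genome build is not given in the sources used here. RMA removes background, gives all arrays a common distribution and condenses the probes of each transcript, so a shift shared by all transcripts would not be seen. Values ran from 1.10 to 14.09, with no detection calls. Of 33297 rows, 19460 had a single symbol, 1754 several and 12083 none; 19429 gene IDs were matched to the RefSeq table of GRCh38.p14, and the row with the highest mean represented a gene.

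Groups came from the sample titles. With 1 array against 2, differences were described by size and non-overlap. A limma 3.58.1 model in R 4.3.3, fitted to all 6 arrays as 4 group means (2 residual and 3.62 prior degrees of freedom; two-sided, Benjamini-Hochberg over all rows), gave standard errors and p-values. Beyond the description of the NpBI-22 arrays as biological replicates, the labels give no source of the cultures. The p-values rest on the spread within the untreated and induced NpBI-22 pairs alone. They hold nothing of the spread between NpBI-206AS cultures.

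The comparison and the gene lists were chosen with earlier results of these data known. Named were the 15 genes highest and 15 lowest by distance to the nearer NpBI-22 array among those 2-fold apart, up to 4 such genes from each list or else up to 2 with the largest distance, and MYH3, MYH8, MYBPH, MIR206, MIR22HG, TACC1, RAB5B, ERBB3, MYOD1 and MYOG. Further members of the muscle lists and of the 74 were named after their values were seen. Alternatives were other normalizations, a filter on dim rows, other fold thresholds, averaged rows and leaving out each replicate.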

Additional observations from a re-analysis of the deposited data

How the results depend on the processing

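Without the dimmest 50 percent of rows, 47 genes were 2-fold apart (24 higher), and 29 contraction genes lay below both arrays, because fewer genes were tested. With a 1.5-fold threshold 574 genes were apart (374 higher, 200 lower), with a 3-fold threshold 2 (2 higher, 0 lower), and with 2-fold required beyond the nearer array 37 (15 higher, 22 lower). Leaving out each NpBI-22 replicate gave 56 to 327 genes, 19 to 241 higher and 37 to 86 lower; the low higher count and the high counts came without replicate 1 and without replicate 2 respectively. The contraction median then lay between -0.44 and -0.35. Quantile normalization again, median centring, cyclic loess and averaged rows kept these counts within 1.5 times. limma called 0 rows in all 8 alternatives fixed earlier, where unadjusted p fell under 0.05 in 431 to 4836 rows, with a lowest adjusted p of 0.33, without replicate 2. Of the values of single genes and lists under the alternatives, 1660 stayed within the replicate spread and the rest moved beyond it. For a single gene, leaving out a replicate cannot shift the difference by more than this spread. Averaging rows cannot shift a gene that has a single row. Part of the 1660 was thus fixed in advance, and the count does not measure robustness. No paired analysis was possible because the NpBI-206AS array carries no replicate number. The array code prefix could be taken as a block, a fit chosen after seeing the data; replicate 1 alone has R509, so each of the 33297 rows had the difference and p it had without replicate 1, with 0 rows called and 954 at an unadjusted p under 0.05. Without detection calls, how far a dim row stands above background could not be judged.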

Other observations

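Rows with several gene symbols or none, 13837 in all, entered no comparison by gene. Among them, 212 were at least 2-fold above and 65 at least 2-fold below the mean of the untreated NpBI-22 arrays in untreated NpBI-206AS cells while lying outside both arrays, with differences from -2.12 to 3.04. No gene is named from these rows.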
